A study of Mus musculus with 3 samples.

Results

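Sites called as ATRX-bound in both of 2 mouse neuron libraries are described here. They are the control peaks on chromosomes 1 to 19 whose summit, the base of highest signal, lay within 250 bp of a summit in the MICAL1-FL peak list. There were 4928 such peaks among 110190 autosomal control peaks, which is 4.47% (95% exact Clopper-Pearson interval 4.35 to 4.60), out of 217827 peaks in both lists over all chromosomes. They are called matched peaks below, and the other 105262 autosomal control peaks unmatched. They were chosen by the distance between summits alone, so that share is a description, while place in the genome, depth, background and sequence took no part in the choice.

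C57BL6/J mouse embryos aged E15.5 to E17.5 gave the primary neurons of both libraries, which were given lentivirus after 5 days in culture and harvested after 14. The virus of the control carried mCherry, a fluorescent protein, and that of the other neurons MICAL1-FL, which by its name carries MICAL1, a flavin monooxygenase that oxidises actin. Chromatin was cut enzymatically and precipitated with an antibody against ATRX, and input DNA served as background. The only input sample of the series is labelled as that of control neurons, and no input of MICAL1-FL neurons is listed. Whether both peak lists share a background was not tested. The study asked whether ATRX occupancy differs between these neurons, but with 1 library per condition no difference between conditions can be tested, and intervals here cover counting error only. The sources used here do not say how many embryos were pooled, which cells the virus reached or how many glia the cultures held, and ChIP peaks do not measure the expression of marker genes. Rows of the MICAL1-FL list carry identifiers starting in TBC_M2, a name its sample label does not use, and every MICAL1-FL value rests on the sample label.

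ATRX is an ATP-driven chromatin remodeller related to SWI/SNF enzymes. With its partner DAXX it is known to place the histone variant H3.3 at telomeres, pericentromeric repeats and other repetitive DNA, and to bind G-rich DNA that can fold into quadruplexes. Mutations in the human gene cause alpha-thalassaemia with intellectual disability. Arrays of ribosomal RNA genes and CpG-rich promoters, where unmethylated CG pairs are dense and many transcripts begin, are 2 kinds of place that recur below.

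Depth is given as the number of ChIP fragments over a summit and background as the number set against it in peak calling. Both were recovered from the authors' fold and p-value for at least 99.998% of peaks. Background was at the lowest value of its list for 63.3% of control and 68.8% of MICAL1-FL peaks. That value is the same at all of these peaks, so it does not describe input at each site. Most peaks were shallow. The median peak of each list was 5 fragments deep over a lowest possible background of 1.62, and the q-value was 1 for 95.8% of control and 96.9% of MICAL1-FL peaks.

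The 5 stretches of promoter sequence printed next are examples of matched peaks whose control summit lay just before the start of the named gene. Of the 681 at starts, 90 lay within 250 bp before their nearest start. Most of the others lay downstream, in sequence not printed here. The stretches are the 250 bases before the annotated start, from RefSeq (GRCm38.p6), of the first 5 genes, ranked by the weaker p-value of the pair, whose control summit fell inside that stretch. CG pairs are in capitals.
Snx13: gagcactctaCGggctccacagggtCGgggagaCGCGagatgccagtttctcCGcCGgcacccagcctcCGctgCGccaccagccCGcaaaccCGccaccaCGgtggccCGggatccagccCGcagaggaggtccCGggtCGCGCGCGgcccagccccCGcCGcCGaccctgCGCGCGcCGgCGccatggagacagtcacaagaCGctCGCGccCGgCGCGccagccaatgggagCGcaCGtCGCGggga
Ccdc157: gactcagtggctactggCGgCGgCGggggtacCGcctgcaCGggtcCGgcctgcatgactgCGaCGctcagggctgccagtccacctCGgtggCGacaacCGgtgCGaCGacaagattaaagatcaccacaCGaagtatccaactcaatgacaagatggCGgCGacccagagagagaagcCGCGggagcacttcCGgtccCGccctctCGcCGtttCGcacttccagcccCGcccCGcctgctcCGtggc
Lrrc7: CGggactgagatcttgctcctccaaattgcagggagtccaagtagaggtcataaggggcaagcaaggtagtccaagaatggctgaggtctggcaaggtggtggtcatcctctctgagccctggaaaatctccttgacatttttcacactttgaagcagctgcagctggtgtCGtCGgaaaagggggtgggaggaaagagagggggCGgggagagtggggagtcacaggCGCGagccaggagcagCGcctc
Hilpda: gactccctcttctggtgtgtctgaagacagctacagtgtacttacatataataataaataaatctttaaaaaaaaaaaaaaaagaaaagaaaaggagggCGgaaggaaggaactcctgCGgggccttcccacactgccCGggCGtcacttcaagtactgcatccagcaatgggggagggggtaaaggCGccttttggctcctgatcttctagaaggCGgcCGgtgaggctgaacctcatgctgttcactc
Nell1: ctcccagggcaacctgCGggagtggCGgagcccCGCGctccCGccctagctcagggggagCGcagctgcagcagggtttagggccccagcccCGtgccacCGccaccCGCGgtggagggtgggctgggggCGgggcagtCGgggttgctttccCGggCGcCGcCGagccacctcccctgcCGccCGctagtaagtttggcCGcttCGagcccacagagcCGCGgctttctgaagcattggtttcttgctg

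The Snx13 stretch, at chr12:35046939-35047188 on the plus strand, held 36 CG pairs and was 75.6% G or C. Snx13 encodes a sorting nexin of endosomes. Its control summit lay 238 bases before the start with a depth of 11 fragments, and the MICAL1-FL summit 274 bases before it, outside the stretch, with a depth of 8. Both stood on the lowest background of their list.

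The Ccdc157 stretch, at chr11:4160294-4160543 on the minus strand, held 26 CG pairs and was 66.0% G or C. The same site lies at the start of Sf3a1, a subunit of a splicing complex that is read in the other direction. Its control summit lay 242 bases before Ccdc157 but 181 bases downstream of Sf3a1, the nearer start. By nearest start it is therefore not among the 90. Control depth there was 9 fragments and MICAL1-FL depth 8. The Lrrc7 stretch, at chr3:158561762-158562011 on the minus strand, held 7 CG pairs at 57.2% G or C. Lrrc7 encodes densin-180, a postsynaptic scaffold protein, and both libraries were 8 fragments deep, with the control summit 186 bases before the start and the MICAL1-FL summit 401 bases before it, outside the stretch.

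The Hilpda stretch, at chr6:29272238-29272487 on the plus strand, was the poorest in G and C of these, at 48.4% with 7 CG pairs. Hilpda encodes a lipid droplet protein induced by low oxygen. The summits lay 25 and 36 bases before its start, with 8 fragments in each library. The Nell1 stretch, at chr7:49975100-49975349 on the plus strand, held 22 CG pairs at 72.0% G or C and was the only stretch of these 5 with a quadruplex pattern as defined below. Nell1 encodes a secreted growth factor, and its site had 9 control and 7 MICAL1-FL fragments, with the MICAL1-FL summit 367 bases before the start, outside the stretch.

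The number of matched peaks was higher than the regional density of peaks alone gave, though not by far. With every MICAL1-FL summit moved by 50, 100, 200 or 500 kb in either direction, which keeps regional density, 2528 to 2834 control peaks were matched over the 8 shifts. Their mean of 2708, or 2.46% of control peaks, was 54.95% of the observed number, so the lists met 1.82 times as often as after a shift. A single shallow matched peak is therefore not shown to be a repeated site. Moves of 5 and 10 kb gave 2912 to 3016 matches, and moves of 1 kb gave 3510 and 3537, so the surplus built up over the last few kb. Shifts of 50 kb or more do not keep crowding of peaks at that scale, and its part in the surplus was not tested.

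Within those last kb, summits near gene starts met most closely. For control peaks within 1 kb of an annotated protein-coding start, MICAL1-FL summits at 0 to 50 bp numbered 41.7 per 1000 control peaks and 100 bp of distance, against 3.99 after the shifts. Their number had fallen to 23.7 at 200 to 250 bp and 18.1 at 500 to 750 bp, and met the shifted level at 4000 to 5000 bp, with 4.19 against 4.32. For control peaks elsewhere the density was 9.36 at 0 to 50 bp and 6.83 at 200 to 250 bp, where the shifts gave 4.91 and 4.99. No step stood at the limit of 250 bp. The 405 peaks whose nearest MICAL1-FL summit was over 225 and up to 250 bp away, and the 396 over 250 and up to 275 bp away, both had a median depth of 6 fragments, and 15.3% and 12.3% of them lay at starts.

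**Figure D1:**
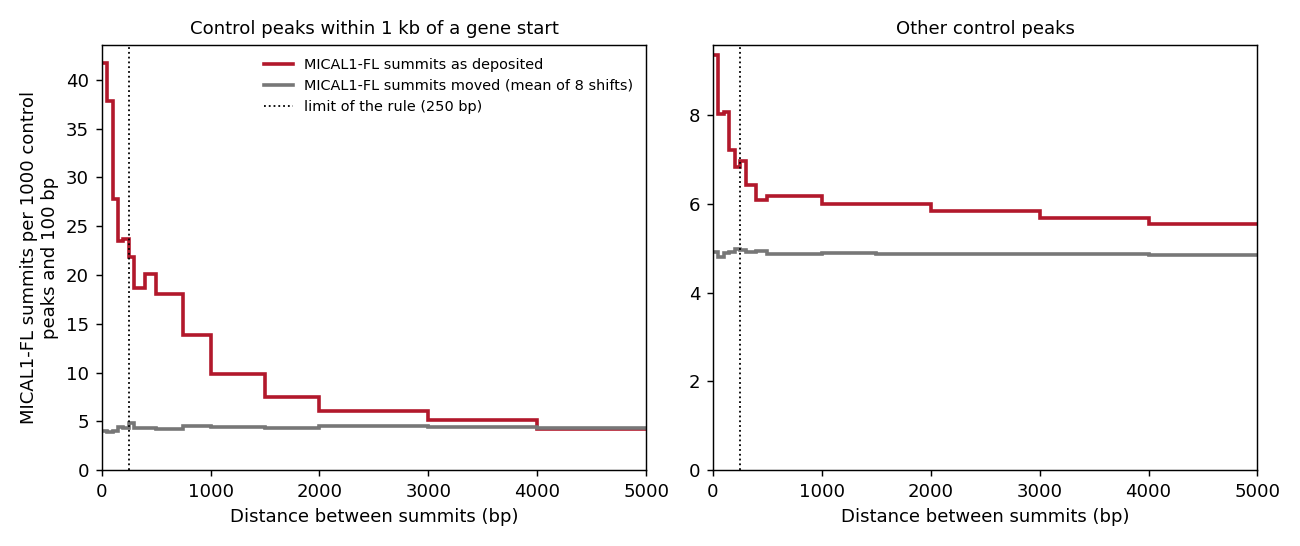
Density of MICAL1-FL summits by distance from control summits, per 1000 control peaks and 100 bp, for control peaks within 1 kb of a protein-coding gene start (left) and others (right, on its own scale). Red lines are the deposited lists and grey lines the mean of 8 shifts. The red line starts at 41.7 on the left and 9.36 on the right, above grey levels of 3.99 and 4.91.

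Gene starts were where the matched peaks stood apart in place. Of the 4707 matched peaks on the 18 autosomes with annotated starts (starts on chromosome 18 were not analysed here), 681 had a summit within 1 kb of a protein-coding start, or 14.5% (13.5 to 15.51). Among 101131 unmatched control peaks it was 3707, or 3.67% (3.55 to 3.78), a share 3.95 times lower. Control peaks matched to a shifted MICAL1-FL list lay at starts in 2.85% to 4.02% of cases. Within 250 bp of a start the shares were 6.35% (5.67 to 7.09) and 1.29% (1.22 to 1.36). These intervals do not overlap, and the matched share was the higher one on each of the 18 chromosomes, with ratios from 2.73 on chromosome 5 to 5.9995 on chromosome 16.

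The other end of genes showed no such gathering. Summits within 1 kb of a 3' end and not of a start made up 0.659% of matched (0.448 to 0.934) and 1.02% of unmatched peaks (0.957 to 1.08). Both ends of protein-coding genes pooled, on all 19 autosomes, held 15.52% of matched (14.5 to 16.6) and 4.99% of unmatched peaks (4.86 to 5.12). Elsewhere in protein-coding genes lay 36.3% of matched (34.9 to 37.7) and 39.5% of unmatched peaks (39.2 to 39.8), and in other annotated genes 9.45% (8.63 to 10.3) and 9.08% (8.90 to 9.26). Outside annotated genes were 40.7% of matched peaks (39.3 to 42.1) and 47.8% of unmatched ones (47.5 to 48.1) on the 19 autosomes, with 43.4% to 47.2% after the shifts.

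At starts, matched summits lay mostly on the transcribed side. Of the 681, 509 were downstream of the nearest start, or 74.7% (71.3 to 78.0), against 66.9% of unmatched start summits (65.3 to 68.4). The fullest 250 bp bins were those from 0 to 250 and from 250 to 500 bp downstream, with 4.42% and 3.97% of all matched peaks. In unmatched peaks the same bins held 0.857% and 0.768%. Matched and unmatched shares came together at 1500 to 2500 bp upstream, between 0.127% and 0.234% per bin.

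**Figure D2:**
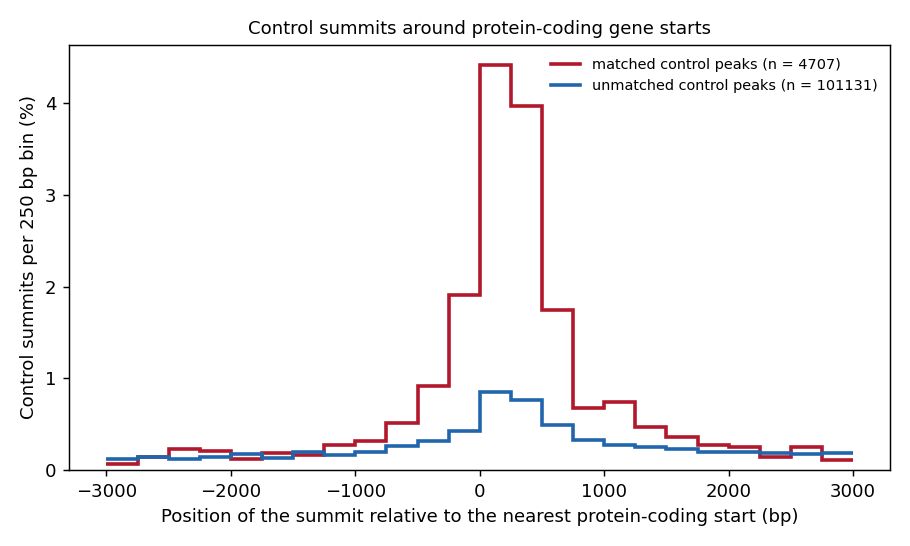
Position of control summits relative to the nearest protein-coding start, as a percentage of all control peaks of each class per 250 bp bin, with negative positions upstream. Matched peaks (red) reach 4.42% in the bin from 0 to 250 bp, and unmatched peaks (blue) 0.857% in the same bin.

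Matched peaks lay at starts more often at most depths taken one by one. At 5 control fragments, 8.57% of matched peaks (7.19 to 10.1) and 2.72% of unmatched ones (2.56 to 2.89) lay at starts. At 7 fragments the shares were 23.0% (19.9 to 26.3) and 6.06% (5.62 to 6.53), and at 9 to 10 fragments 38.9% (31.6 to 46.5) and 14.2% (12.3 to 16.2). From 11 to 20 fragments matched and unmatched peaks did not differ beyond counting error, with 21.2% (12.1 to 33.0) and 20.5% (15.4 to 26.5). Over 20 fragments, 0 of 95 matched peaks lay at a start, with an interval up to 3.81%. Background moved with this result. Only 122 of the 681 pairs at starts stood on the lowest background of both lists, against 1748 of all 4928. With both lists limited to such peaks, the share at starts was 7.31% of matched (6.10 to 8.66) against 3.07% of unmatched peaks, a ratio of 2.38. Among control peaks of 7 fragments on the lowest control background, 19.03% of matched (14.9 to 23.7) and 4.54% of unmatched ones (4.03 to 5.09) were at starts. With at least 6 fragments in both lists the shares were 26.8% and 5.36%, a ratio of 5.003. The part of input DNA in these shares was not tested.

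The matched share itself rose with depth. It was 3.27% (3.03 to 3.52) at 4 or fewer fragments, 5.93% (5.52 to 6.37) at 7, 11.5% (10.0005 to 13.2) at 9 to 10 and 56.6% (48.9 to 64.0) over 20, while the shifted lists gave 1.93% to 2.68% in all classes. A background above the lowest was found under 44.7% of matched peaks (43.3 to 46.1) and 36.5% of unmatched ones (36.2 to 36.8). Median fold was 2.29 in both classes, and median width 352 and 334 bp.

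**Figure D3:**
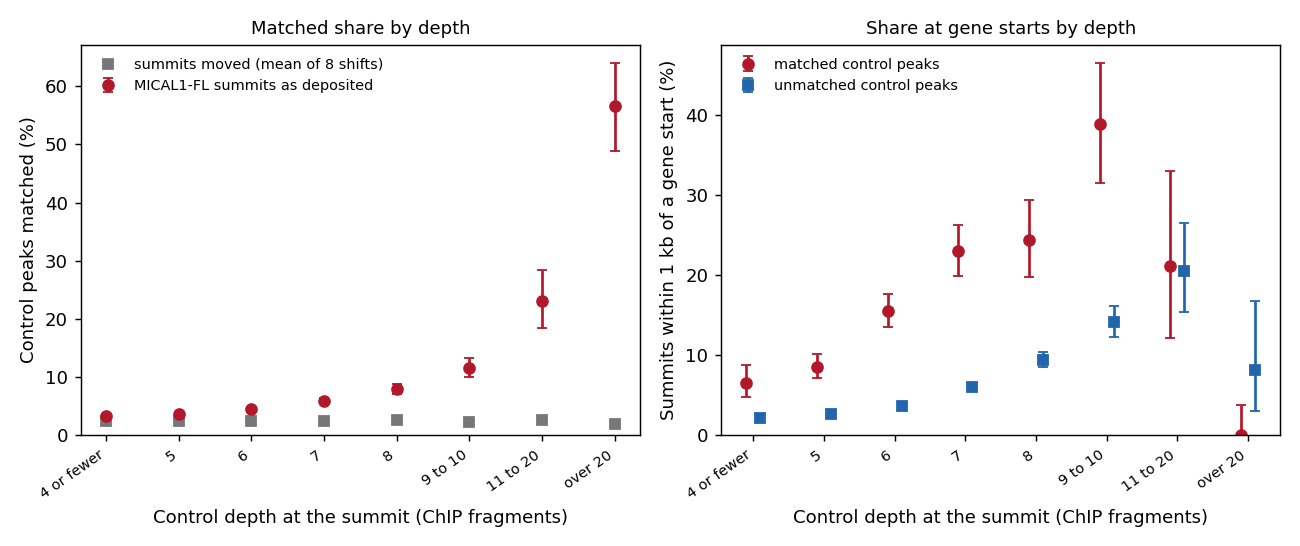
Control peaks by depth at the summit in ChIP fragments, with 95% exact binomial intervals. Left, the share matched rises from 3.27% to 56.6%, while shifted lists (grey) stay between 1.93% and 2.68%. Right, the share within 1 kb of a gene start is higher in matched (red) than unmatched (blue) peaks up to 10 fragments, and 0 in matched peaks over 20.

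Matched pairs fell into a few very deep sites and many shallow ones. Both libraries were over 20 fragments deep at 91 pairs, which lay on all 19 autosomes, 60 of them outside annotated genes (65.9%, 55.3 to 75.5). Their summits were a median of 13 bp apart. Their depths went together, with Spearman's rho of 0.974 over 91 sites that share the 2 libraries, and none stood on a control background under 8.32 fragments. The median log2 ratio of MICAL1-FL to control was -0.12 for depth and -0.57 for background, so the higher MICAL1-FL folds there go with a lower recovered background.

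At the 4829 pairs with up to 20 fragments in both libraries, summits were a median of 113 bp apart and rho was 0.15. Of all pairs, 2058 were deeper in the control, 1680 in the MICAL1-FL library and 1190 equally deep. Pairs at starts had a median depth of 6 fragments in each library, with control depths of 4 to 19 and MICAL1-FL depths of 4 to 18. A q-value below 0.05 in both lists was reached by 59 pairs, of which 5 were at most 20 fragments deep and 0 lay at a start.

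**Figure D4:**
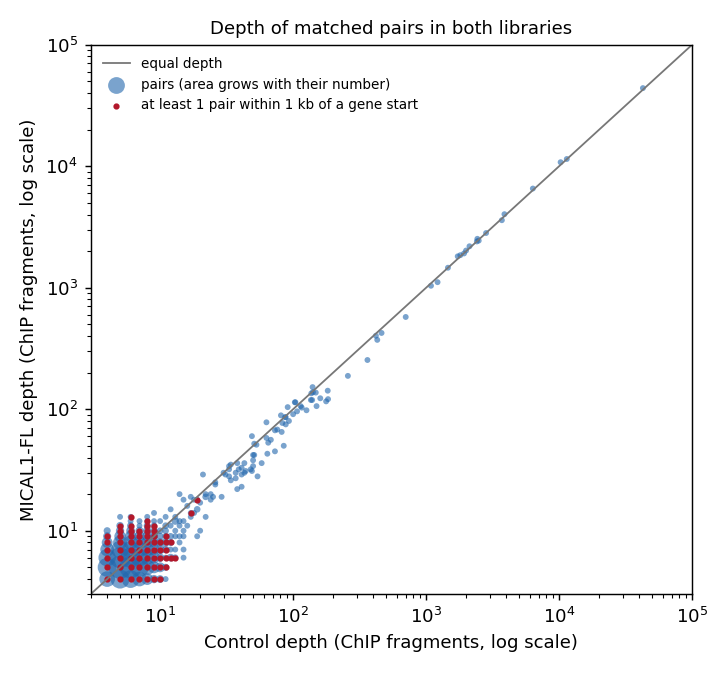
Depth of matched pairs in ChIP fragments, control against MICAL1-FL, both axes logarithmic. Blue points are pairs, with area growing with the number of pairs at that place, red points mark places with a pair at a gene start, and the line marks equal depth. Pairs over 20 fragments follow the line up to 42596 control and 43885 MICAL1-FL fragments, and pairs at starts lie between 4 and 19.

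The 5 pairs that passed q in both lists without great depth lay inside gene spans or between genes, away from starts. The first was at chromosome 7 118291548 to 118292441, outside protein-coding genes, with 13 fragments in each library on the lowest background, folds of 5.34 and 5.35 and summits 6 bp apart. In Cacng4, which encodes an AMPA receptor auxiliary subunit, a site at chromosome 11 107783800 to 107785466 had 14 control and 20 MICAL1-FL fragments and folds of 4.74 and 7.39. In Peak1, a pseudokinase gene of the cytoskeleton, chromosome 9 56260386 to 56260816 had 17 and 13 fragments. Each of these sites was deeper than 10 fragments in both libraries on a background under 3.

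The remaining 2 were in Cgnl1 and Il3ra. Cgnl1 encodes a tight junction protein, and its site at chromosome 9 71781910 to 71782167 had 11 fragments in each library with summits 4 bp apart. Il3ra encodes an interleukin-3 receptor subunit, and its site at chromosome 14 14348686 to 14349565 had 14 control and 11 MICAL1-FL fragments. The MICAL1-FL peak there was 4981 bp wide, against 880 bp in the control. The other 5 of the 10 pairs with the highest lower fold were deeper, with at least 75 fragments. Of these, 4 lay in the first assembled bases of chromosome 9, and the other, on chromosome 18 at 85697953 to 85698291 had 88 and 75 fragments.

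Matched peaks were dense in some places, of which 3 short stretches are described. They were picked for their many matched peaks and bounded by the first and last of them, so their counts are a description that the choice fixed. The array of 5S ribosomal RNA genes on chromosome 8 is the first of them. Between 123538257 and 123623968, where the annotation lists 42 genes named as 5S rRNA or 5S-like, 17 of 43 control peaks were matched. Only 3 of the 17 had their summit inside an annotated gene, and the others lay between genes. Depths there ran from 8 to 19 fragments in the control, with a median of 12, and from 8 to 16 in the MICAL1-FL library, with a median of 11. Folds were from 1.63 to 3.304 and from 1.57 to 2.87. Median backgrounds of 3.70 and 4.33 fragments were above the lowest of 1.62. Backgrounds are recovered from fold and p, and input DNA itself was not analysed here.

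The second stretch, on chromosome 6 from 47659333 to 47773092, holds predicted genes such as Gm40367. There 15 of 33 control peaks were matched, with 21 to 58 control and 25 to 36 MICAL1-FL fragments on median backgrounds of 18.5 and 18.8. The third was the start of assembled chromosome 9, known for major satellite repeats, where 15 of 25 control peaks were matched between 3000030 and 3038294. Depths there were 419 to 6339 control and 402 to 6542 MICAL1-FL fragments. Median backgrounds were 501 and 339 fragments, far above the lowest of each list. The part of input DNA in these depths was not tested. Elsewhere matched peaks were mostly spread thinly. The median 1 Mb window held 2 and 498 of 2411 windows held 0, while 9 windows held 10 or more. Another matched peak lay within 10 kb of 431 matched peaks (8.75%, 7.97 to 9.57).

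Chromosomes differed little. The matched share ran from 3.95% on chromosome 14 (3.45 to 4.51) to 5.09% on chromosome 12 (4.50 to 5.72) and 5.08% on chromosome 18 (4.44 to 5.77). On each of the 19 autosomes it was above the highest of the 8 shifts, by 1.71 to 2.00 times the mean of the shifts.

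**Figure D5:**
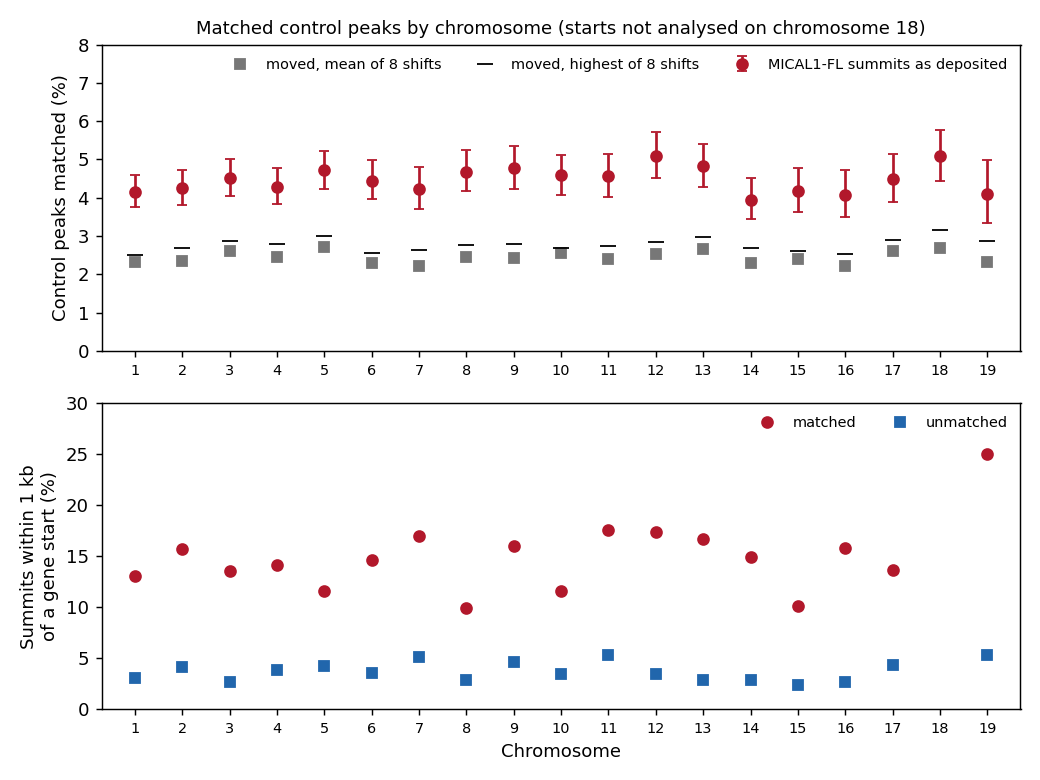
Matched control peaks by chromosome. Above, the matched share with 95% exact intervals (red) beside the mean (grey squares) and highest (black bars) of 8 shifts. Below, the share of matched (red) and unmatched (blue) summits within 1 kb of a gene start, from 9.93% to 25% in matched and 2.37% to 5.35% in unmatched peaks.

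Starts with a matched peak were rich in G, C and CG pairs. The RefSeq stretch read here runs from 250 bases before to 50 after a start, for 20085 starts of 16457 genes. The 787 starts with a matched summit within 1 kb had a median of 66.3% G or C and 8.33 CG pairs per 100 bases, against 53.3% and 2.33 at the 12413 starts with no summit of either list. Starts with summits of both lists that did not match, 987 in all, were much the same as matched ones, with 67.0% and 8.67. Starts with a summit of 1 list lay between, at 61.7% for the control and 61.0% for the MICAL1-FL list. The share of starts with a matched summit rose with G and C content, from 0.547% (0.325 to 0.864) under 45% to 8.85% (8.08 to 9.66) at 65% or more. Over these same bands the share with any control summit rose from 5.90% to 42.8%, so it rose for unmatched peaks too.

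A quadruplex pattern was sought as 4 runs of at least 3 G with 1 to 7 bases between them, on either strand. It was found at 41.4% of starts with a matched summit (38.0 to 44.96), 38.0% of those with unmatched summits of both lists (34.95 to 41.1), 16.6% of those with none (15.9 to 17.2) and 22.5% of all starts. Much of this went with G and C content. At 65% G or C or more it was 53.7% of starts with a matched summit (48.9 to 58.4) and 48.3% of all others (46.9 to 49.8), intervals that overlap. Between 55% and 65% it was 32.8% (26.8 to 39.2) and 24.2% (23.1 to 25.3). Between 45% and 55% it was 10.2% (4.78 to 18.5) and 8.19% (7.47 to 8.95), and under 45% it was 0% (0 to 18.5) and 1.59%. Starts with unmatched summits of both lists had 50.5%, 25.3% and 14.8% in the upper 3 bands, from the highest down. The telomere unit TTAGGG was sought on either strand and is able to share its GGG with a quadruplex pattern. It was at 7.497% of starts with a matched summit (5.76 to 9.56) and 10.5% of all starts. TATAAA, on either strand, was at 5.46% (3.98 to 7.29) and 12.7%. Starts with unmatched summits of both lists were much like matched ones, with TTAGGG at 8.11% (6.48 to 9.99) and TATAAA at 5.37% (4.05 to 6.97). A match is a string of letters and does not show binding.

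At the level of genes, 695 of 16457 protein-coding genes had a matched summit within 1 kb of a start, or 4.22%. A control summit of any kind was there at 25.1% and a MICAL1-FL summit at 24.2%. Either end of the gene had a matched summit at 809 of 20665 genes, or 3.91%. The first by p-value was Lars2, the mitochondrial leucyl-tRNA synthetase gene, with 76 control and 68 MICAL1-FL fragments at chromosome 9 123461882 to 123462167, far from its start and on backgrounds of 24.5 and 16.5. Next came Sfi1, a gene of a centrin-binding protein, with 29 and 19 fragments on backgrounds of 11.6 and 4.22. These were the highest control backgrounds among the first 10 genes.

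Crlf2, a cytokine receptor gene, had 12 control and 9 MICAL1-FL fragments, 3342 bp from its annotated start. The other first-ranked genes had their site within 1 kb of the start. They were 2700081O15Rik (9 and 10 fragments), the vomeronasal receptor gene Vmn2r29 (19 and 18, on backgrounds of 5.23 and 6.14), Fbrsl1 (9 and 11), Snx13, Ccdc157 and Sf3a1 with the site shown above, and Akap9, which encodes a kinase anchor of the Golgi and centrosome (8 and 12). Except at Vmn2r29 these stood on backgrounds of at most 2.07 fragments. Most of these starts thus carried about 10 fragments.

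Within gene spans, most genes with a matched peak had a single one. A matched peak lay in 1898 of 20665 protein-coding genes, of which 1522 had 1, 216 had 2 and 160 had 3 or more. The 5 genes with the highest counts were long and held many control peaks, and the order is by count alone. Opcml, an IgLON adhesion gene, held 10 of 85 control peaks over 1135 kb, and Cdh13, which encodes T-cadherin, 10 of 117 over 1185 kb. Celf4, an RNA-binding splicing regulator of neurons, held 9 of 50 over 277 kb, and Setbp1 held 9 of 46 over 360.1 kb. Dlgap1, a postsynaptic density scaffold, held 9 of 109 over 852 kb. Celf4 and Setbp1 thus reached the same number in far shorter spans.

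Per length, among genes with at least 3, the first was Sfi1 with 4 of 13 control peaks (5.59 per 100 kb). Bcl11b, a transcription factor of deep-layer cortical neurons, followed with 5 of 17 over 93.7 kb (5.33 per 100 kb). Then came Pcdhgb5 (4.51) and Pcdhga8 (4.30), clustered protocadherins whose spans overlap and share peaks, and Nuak1 (4.30), a kinase known in axon branching, with 3 of 9. Daxx, the partner of ATRX, held 0 control peaks, and Mical1 held 1 that was not matched.

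Lists of genes by function were scored at starts and over gene spans. Of 28 neuronal identity transcription factors with an annotated start, 4 had a matched summit there (14.3%, 4.03 to 32.7), an interval that includes the 4.22% of all genes. They were Pou3f2, Zeb2, Bcl11a and Emx2, the last with 7 control and 5 MICAL1-FL fragments. Pou3f2, which directs cortical neuron fate, had 9 control and 10 MICAL1-FL fragments with summits 8 bp apart, and Zeb2, a zinc finger repressor of cortical development, 6 and 7. Of these 28 genes, 15 had some control summit at a start and 13 some MICAL1-FL summit, against 25.1% and 24.2% of all genes. Over their spans and 5 kb on both sides, 27 of 261 control peaks were matched (10.3%, 6.93 to 14.7), against 5.14% for all protein-coding genes.

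Of 31 axon guidance and dendrite growth genes, 5 had a matched summit at a start (16.1%, 5.45 to 33.7), against 4.22% of all genes. They are the ephrin receptor genes Epha5 (9 control and 7 MICAL1-FL fragments) and Epha6, the ephrin ligand gene Efna5 (7 and 6, summits 16 bp apart), the semaphorin receptor gene Plxna2 (8 and 8) and the netrin receptor gene Unc5c (11 and 7). Over their spans the matched share was 34 of 690 control peaks (4.93%, 3.44 to 6.82), which is near the background. Starts with any summit were common too, at 17 of the 31 for the control and 21 for the MICAL1-FL list. Among all genes these shares were 25.1% and 24.2%, so the list was rich in summits of any kind.

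Synaptic and channel lists had few matched starts in absolute number. Glutamate receptors had 2 of 14, namely Grm7, a presynaptic metabotropic receptor, with 7 control and 9 MICAL1-FL fragments, and Gria4, an AMPA receptor subunit, with 8 and 7. Postsynaptic scaffolds and synaptic adhesion genes had 3 of 23, which were Tenm4, the kinase gene Camk2b (10 and 4 fragments) and Dlg1 (7 and 7). Voltage-gated ion channels had 3 of 22, the potassium channel Kcnh1, the calcium channel subunit Cacna2d3 and the sodium channel Scn8a, and cadherins and other adhesion genes 3 of 22, which were Cdh7 (7 and 6), Lsamp (6 and 8) and Pcdh10 (5 and 9). Presynaptic release genes had 0 of 19, although 13 had some control summit at a start, and GABA and glycine receptors 0 of 13. With lists this short the intervals include 4.22% in every one of these cases. Activity-regulated genes had 2 of 27 (7.41%, 0.910 to 24.3), the phosphatase gene Dusp1 (6 and 7 fragments) and the transcription factor gene Npas4. Over their spans 8 of 82 control peaks were matched (9.76%, 4.31 to 18.3). These intervals include the 4.22% of all genes at starts and the 5.14% of control peaks over all protein-coding genes.

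Among genes outside neuronal function, oxidative phosphorylation genes had 5 of 72 starts matched (6.94%, 2.29 to 15.47), an interval that includes the 4.22% of all genes. These were the cytochrome oxidase subunit genes Cox7c (7 control and 8 MICAL1-FL fragments) and Cox8a (9 and 5), the complex I genes Ndufa6 (6 and 6) and Ndufaf2 (5 and 7), and the ATP synthase subunit gene Atp5g3. Ribosomal protein genes had 3 of 69 (4.35%, near the share of all genes), Rpl37a, Rps6 and Rps15a, and MICAL family and actin regulators 3 of 28, which were Actg1, the gamma-actin gene (9 and 7), and Enah and Evl, which encode actin filament regulators of 1 family. The ATRX, H3.3 and heterochromatin factors had 1 of 27, the DNA methyltransferase gene Dnmt3a, the imprinted genes 0 of 32 and the clustered histone genes 0 of 52 (interval up to 6.85%), none of which differs from 4.22% beyond counting error. Zinc finger genes had 10 of 343 (2.92%, 1.41 to 5.30), with Zfp592 at 7 and 6 fragments. Olfactory receptors had 1 of 934 (0.107%, 0.00271 to 0.595) and vomeronasal receptors 1 of 320 (0.313%, 0.00791 to 1.73), where any control summit was at the start of 37 and 2. Hox genes had 1 of 22, Hoxa6, and keratin genes 1 of 36, Krt77.

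Markers of other cell types that neuron cultures can hold had matched starts at 0 of 10 astrocyte, 0 of 9 microglia and macrophage and 1 of 10 oligodendrocyte lineage genes, the last being Pdgfra. Their intervals reach 30.8%, 33.6% and 44.5%, so these counts cannot be told apart from the 4.22% of all genes. The defensin genes had 0 of 47 and the guanylate-binding protein genes 0 of 5, with intervals up to 7.55% and 52.2%. The clustered protocadherins, on chromosome 18, had no starts to score, and 7 of 112 control peaks over their spans were matched (6.25%, 2.55 to 12.5). The lists were not tested against each other, and peaks a few fragments deep do not show which genes ATRX binds.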

How the data were processed

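ATRX ChIP-seq peak lists of control (mCherry) and MICAL1-FL neurons were used, 1 list per library, with groups taken from the sample titles. An input sample of control neurons was not analysed here. The submitters' processing notes name ChIPseeker 1.26.2, MACS 1.4.2, SAMtools 1.9 and Bowtie 1.3.0, without roles, while threshold and genome build were not given in the sources used here. In the deposited lists the score equalled 10 times -log10 p, cut to its whole part, in every row. Each fold is the authors' ratio of ChIP to background, and the -log10 p and q values are the authors' too, with a largest p of 0.0498 and 0.0496. They serve here to describe peaks within a list.

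Depth and background were computed by taking fold as (pileup + 1)/(background + 1) and p as a Poisson probability of a higher pileup, an inference that no label states. At least 99.998% of pileups fell no more than 0.05 from whole numbers. Total reads per library are not known from the lists. Summits within 0.01 fragments of the lowest background of their list count as lowest.

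Each control summit was paired with the nearest MICAL1-FL summit (Python 3.11.15, numpy 2.4.6, pandas 2.3.3, scipy 1.17.1). Genes and starts were those of RefSeq for mouse GRCm38.p6, and the rise of summits at these starts settled the build. Shifts were fixed distances. Steps were checked on simulated data. The members and gene lists were chosen with earlier results of these data known. Gene starts and sequence features were added after the peaks had been seen, since start positions were not known when the tests were set, as were the leaving out of deep peaks and of 3 stretches. Named were the 10 pairs with the highest lower fold, the 10 genes with an end site of the highest lower -log10 p, the 5 genes with most matched peaks, the 5 with most per length, up to 2 genes per list, Daxx and Mical1. From the lists examples are given. The 3 stretches, and list genes named beyond 2 per list for a matched start, were named after their values were seen.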

Additional observations from a re-analysis of the deposited data

How the results depend on the processing

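With summits within 100 bp, the matched share of control peaks was 2.03%, of which 17.7% lay at gene ends, 16.4% at starts and 47.4% above the lowest background. Within 500 bp these were 7.89%, 14.5% and 13.1%, with background little changed. An overlap of 1 bp gave 6.85% matched and 16.8% at ends. With -log10 p of at least 2 in both lists, 3.51% were matched, 18.8% of them at ends, 17.4% at starts, 38.7% outside annotated genes and 38.6% above the lowest background. With at least 6 fragments in both lists these were 3.105%, 28.6%, 26.8%, 36.7% and 59.8%. On the lowest background of both lists they were 2.51%, 8.52%, 7.31% and 44.5%. Matching from the MICAL1-FL side gave 4.72% matched and 41.3% above the lowest background. Ends within 500 bp and 3 kb gave 10.4% and 23.0%, and starts within 250 and 500 bp gave 6.35% and 11.2%.

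The direction did not change in any of these. The matched share was 1.53 to 3.09 times that after shifts, and matched peaks were at starts 2.38 to 5.003 times, at ends 2.04 to 4.24 times and outside annotated genes 0.793 to 0.906 times as often as unmatched ones. Leaving out peaks over 20 fragments, the 3 stretches or the chromosome ends, and one-to-one pairing, moved no share beyond its interval. On the lowest background, 18 autosomes and not 19 exceeded every shift. No paired analysis was possible because each condition has 1 library, and for the same reason none could be left out. Depth limits all of these values, as 71.6% of matched and 83.9% of unmatched peaks had at most 6 fragments.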

Other observations

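Starts of long non-coding RNA genes, away from protein-coding starts, also held matched peaks more often than unmatched ones. There were 92 of 4707 matched peaks within 1 kb of such a start (1.95%, 1.58 to 2.39), against 1.25% of unmatched peaks (1.18 to 1.32) and 1.03% to 1.92% after the shifts.

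Outside the autosomes the same summit distance matched 44 of 1745 control peaks on the X chromosome (2.52%, 1.84 to 3.37), 18 of 73 on the Y chromosome (24.7%, 15.3 to 36.1) and 53 of 145 on scaffolds (36.6%, 28.7 to 44.9). These peaks are in none of the shares above.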
